A study of Mus musculus with 18 samples.

Results

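The mitochondrial ribosomal protein (MRP) genes were taken as the protein-coding genes whose symbol begins with Mrpl or Mrps followed by a number. Of the 54532 genes in the tables, 22046 of them protein-coding, 78 fit this description. By name, 49 belong to the large subunit (Mrpl) and 29 to the small subunit (Mrps). The genes were read in livers of 18 wild-type (WT) male C57BL/6J mice, 1 library per mouse. Diets began at 4 wk of age. The Ctrl group (n = 5) received a control diet and the B2D group (n = 5) a diet with 99% of its riboflavin (vitamin B2) removed, both for 4 wk (1 month in the labels). The Ctrl+FF (n = 4) and B2D+FF (n = 4) groups received the same diets for 9 wk, with fenofibrate (FF), an agonist of the nuclear receptor PPARα, given by daily gavage from week 7 to week 9 at 300 mg/kg and again 2 hr before harvest. All mice were fasted overnight. Fenofibrate, time on diet and the table of values change together between the pairs of groups and cannot be told apart, so levels were tested only between diets within a pair.

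The mitoribosome translates the few mRNAs that mitochondrial DNA encodes, all of them for membrane subunits of the oxidative phosphorylation complexes. Its RNA comes from the mitochondrial genome, but every one of its proteins is encoded in the nucleus, made in the cytosol and imported, so the small subunit (which reads the mRNA) and the large subunit (which forms the peptide bond) are both built from parts of separate genomes. Many of the proteins descend from bacterial ribosomal proteins and others were added in the mitochondrial lineage. Names and structure do not always match: Mrps18a and Mrps30 sit in the large subunit of the solved mammalian mitoribosome, and Mrps36 is a subunit of the 2-oxoglutarate dehydrogenase complex. By structure the counts were 51 large, 26 small and 1 in neither. Of these, 30 large and 16 small subunit proteins have a bacterial counterpart, and 21 and 10 do not.

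The 78 genes lie on 17 chromosomes (GRCm38), and 5 pseudogenes with such names were left out. In the GENCODE M21 annotation, 45 share no exon base with another gene and 33 share some. At least 50% of exon bases were shared for 3 of them. These were Mrps25 (69.8%, with Nr2c2), Mrps34 (77.8%, with Mapk8ip3 and Nme3) and Mrpl53 (88.0%, with Ccdc142os and Gm42688). Genes named below with lower shares include Mrpl19 (36.0%, with Gcfc2), Mrps27 (24.2%) and Mrpl47 (24.2%, with Actl6a and Ndufb5). Mrpl53 was listed at 0 in all 18 libraries, which leaves 77 genes with values. All 77 passed the filter on low values (mean FPKM of at least 0.5). The library kit does not mark strand, so reads from antisense neighbours cannot be told apart from those of the gene. Shares with genes on the same strand were 88.0% for Mrpl53, 37.0% for Mrps34, 23.2% for Mrps18c and 0% for Mrps25. The part of shared bases in the counts was not tested.

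RefSeq promoter windows (300 bases, from 250 before to 50 after a transcription start, GRCm38.p6) were at hand for 69 of the genes, 75 windows in all. The windows of 5 genes to which the comparisons below return are printed as far as base 30 after the start, 5′ to 3′ on the strand of the gene. These are the 2 genes that passed the threshold in a diet comparison, Mrpl1 and Mrps18b, and those among the 5 lowest without fenofibrate and the 5 highest with it whose printed part holds the letters of an ETS or YY1 site. Capitals mark matches to the ETS, YY1 and SP1 letters given after the sequences.
Mrpl1, chr5:96209865-96210144, plus strand: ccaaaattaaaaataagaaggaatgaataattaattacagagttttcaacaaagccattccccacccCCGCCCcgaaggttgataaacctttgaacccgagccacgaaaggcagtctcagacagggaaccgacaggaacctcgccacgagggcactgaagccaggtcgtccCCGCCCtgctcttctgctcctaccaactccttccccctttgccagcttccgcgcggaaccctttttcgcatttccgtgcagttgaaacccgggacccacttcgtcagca
Mrps18b, chr17:35916411-35916690, minus strand: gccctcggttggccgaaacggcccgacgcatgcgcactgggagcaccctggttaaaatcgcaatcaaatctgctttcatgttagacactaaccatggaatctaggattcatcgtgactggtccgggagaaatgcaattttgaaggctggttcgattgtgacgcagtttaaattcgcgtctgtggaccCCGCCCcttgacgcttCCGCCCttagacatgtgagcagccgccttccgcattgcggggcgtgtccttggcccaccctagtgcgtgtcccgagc
Mrps11, chr7:78782881-78783160, plus strand: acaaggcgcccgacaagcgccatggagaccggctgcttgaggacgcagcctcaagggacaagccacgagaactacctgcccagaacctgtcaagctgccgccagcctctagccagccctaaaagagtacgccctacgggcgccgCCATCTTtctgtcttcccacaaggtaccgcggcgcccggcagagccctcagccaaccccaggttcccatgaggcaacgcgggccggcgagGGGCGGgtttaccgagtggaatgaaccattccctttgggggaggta
Mrps26, chr2:130563507-130563786, plus strand: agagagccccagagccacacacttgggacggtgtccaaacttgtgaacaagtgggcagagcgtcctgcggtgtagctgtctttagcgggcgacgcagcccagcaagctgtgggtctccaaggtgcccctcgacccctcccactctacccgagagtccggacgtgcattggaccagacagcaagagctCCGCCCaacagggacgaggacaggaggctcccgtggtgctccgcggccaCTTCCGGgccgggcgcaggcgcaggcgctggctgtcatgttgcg
Mrpl17, chr7:105811058-105811337, minus strand: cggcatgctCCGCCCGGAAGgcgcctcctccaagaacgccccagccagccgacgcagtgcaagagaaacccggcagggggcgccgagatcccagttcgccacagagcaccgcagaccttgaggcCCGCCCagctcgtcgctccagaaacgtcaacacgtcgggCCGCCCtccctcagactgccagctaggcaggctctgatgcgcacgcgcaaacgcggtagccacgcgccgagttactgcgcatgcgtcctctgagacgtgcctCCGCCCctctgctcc

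The letters searched on both strands were CCGGAAG for ETS factors such as GABP, AAGATGG for YY1, GGGCGG for SP1, CCAAT for the CCAAT box, CACGTG for the E-box and TGATGNAAN for ATF4. GABP and YY1 are regulators known for binding at nuclear genes of mitochondrial proteins. ETS letters stood in 26 of the 75 MRP windows (34.7%), against 17.7% of the windows of genes tested and 8.86% of all 32851 windows. They stood in 15 of 48 large (31.2%) and 11 of 27 small subunit windows (40.7%). YY1 letters stood in 13 MRP windows (17.3%, against 7.3% of tested genes and 6.34% of all).

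SP1 letters stood in 39 MRP windows (52%, against 60.7% of the windows of genes tested and 35.7% of all), CCAAT letters in 30 (40%, against 37.6% and 37.4%) and E-box letters in 7 (9.33%, against 10.2% and 7.15%). No MRP window held the ATF4 letters (2.37% of tested genes and 3.95% of all), which says only that these letters are not in the windows. ETS and YY1 letters overlapped in none of the MRP windows. In the Mrpl17 window the ETS letters that begin 237 bases before the start overlap SP1 letters that begin 241 bases before it.

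The libraries held 15320729 to 21898502 reads on genes, and the members tested held 46 (Mrps6) to 3500 reads (Mrpl17) in a library. FPKM (fragments per kilobase of gene length, scaled to the size of the library) is a level per length. The length in the tables equals all annotated exon bases of the gene for 73 of the 78 genes, so a gene with long or many annotated exons outside its main transcript has a lower FPKM, and the order of levels between genes holds on this scale alone. Fewer genes were detected in the Ctrl mouse 5 (17079) and the B2D mouse 3 (15866) than in the other libraries (18137 or more), and results without this pair are given where they matter. Hepatocyte markers dominated (summed FPKM of the group means 21110 to 38764), while lymphocyte and proliferation markers summed to at most 1.51 and 0.413 FPKM. Of the other markers, Clec4f (Kupffer cells) and Alas2 (erythroid) passed the threshold in B2D as lower. In B2D+FF, Alas2 was lower and Ass1 (hepatocytes), Lyve1 (endothelium) and Retnlg (neutrophils) were higher. The rest of a list did not always go with the marker named. In B2D, log2 fold changes were below 0 for 5 of 6 Kupffer cell and 5 of 5 erythroid markers tested. In B2D+FF they were below 0 for 5 of 5 erythroid markers. They were above 0 for 4 of 6 hepatocyte, 1 of 5 endothelial and 3 of 3 neutrophil markers. The part of these markers in the values below was not tested. In whole liver, fewer cells of a type and less RNA per cell cannot be told apart.

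MRP genes had uneven levels. The median of the 77 genes had a mean of 12.0 FPKM over all libraries of both tables, beside 3.41 for the 12421 genes tested in any comparison. It was 14.3 for large and 8.52 for small subunit genes. A mean of at least 10 FPKM was reached by 43 of the 77 (55.8%) and by 24.8% of the genes tested. The 3 highest were Mrpl14 (65.1 FPKM), a conserved protein at the face between the subunits, Mrpl34 (57.5), a small bacterial-type protein, and Mrpl12 (57.4), the stalk protein that recruits translation factors. Of the genes above 0, the 3 lowest were Mrps25 (1.27), Mrps30 (2.17) and Mrpl19 (2.34). The lengths used were 949, 607 and 1532 bases for the 3 highest and 6576, 6666 and 5450 bases for the 3 lowest. Mrpl12 ranged from 36.0 to 62.3 FPKM in Ctrl, 34.7 to 54.0 in B2D, 54.0 to 70.9 in Ctrl+FF and 61.3 to 88.7 in B2D+FF.

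Summed over the large subunit genes, the FPKM were 777, 939, 836, 889 and 702 in the 5 Ctrl mice and 741, 764, 648, 733 and 699 in the 5 B2D mice. They were 1012, 1039, 1212 and 940 in Ctrl+FF and 1266, 1135, 966 and 1083 in B2D+FF. The groups of each pair overlapped. Small subunit sums were 316 ± 35.3 (SD, n = 5) in Ctrl, 277 ± 26.04 (n = 5) in B2D, 400.2 ± 36.5 (n = 4) in Ctrl+FF and 433 ± 40.8 (n = 4) in B2D+FF. The subunits kept nearly one proportion: large over small was 2.53 to 2.69 in Ctrl, 2.47 to 2.72 in B2D, 2.54 to 2.70 in Ctrl+FF and 2.52 to 2.62 in B2D+FF. With subunits assigned by structure, the ratio lay between 2.62 and 2.91 in all 18 mice. Cytosolic ribosomal protein genes, which serve the other protein synthesis machinery of the cell, summed to 9789 ± 1426 FPKM in Ctrl, 9959 ± 1376 in B2D, 13104 ± 2671 in Ctrl+FF and 14067 ± 3059 in B2D+FF. The mice that were highest in MRP sums with fenofibrate, Ctrl+FF mouse 3 and B2D+FF mouse 1, were also highest in cytosolic ribosomal protein sums (16902 and 18494), and Ctrl mouse 5 and B2D mouse 3 were lowest of their groups in both. The part of this shared variation in the comparisons was not tested.

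**Figure D1:**
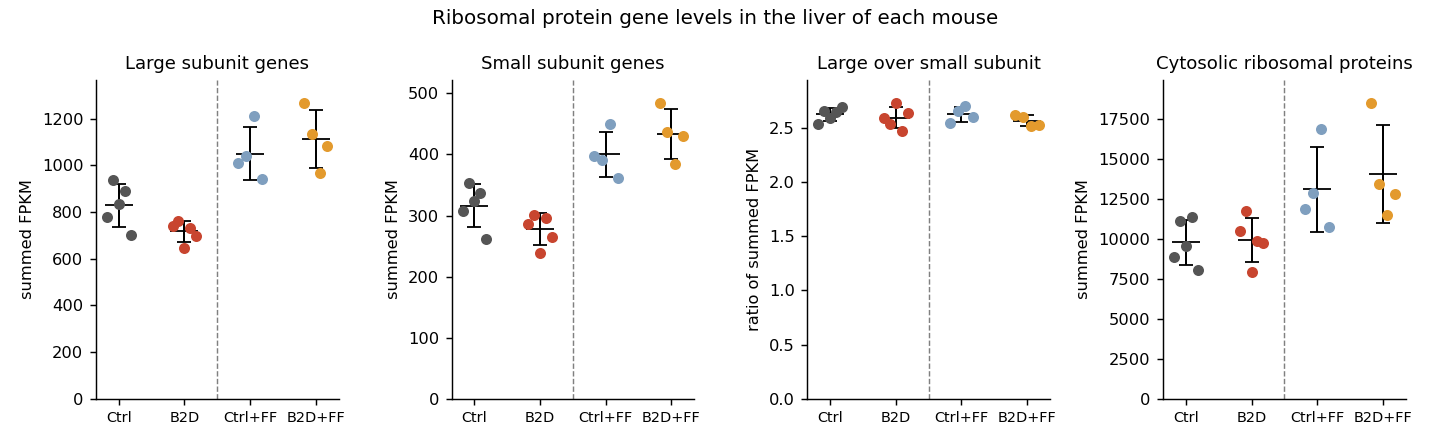
Summed FPKM of the large subunit genes, of the small subunit genes, their ratio, and summed FPKM of the cytosolic ribosomal protein genes; each point is the liver of 1 mouse, bars are mean ± SD, and the dashed line separates tables that were normalized separately. The ratio lies between 2.47 and 2.72 in all 18 mice, and the groups of each diet pair overlap in all panels.

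After 4 wk of riboflavin deficiency most MRP genes of both subunits had a slightly lower mean level than in Ctrl, and 1 gene, Mrpl1, passed the threshold as lower. Log2 fold changes (B2D over Ctrl, on log2(FPKM + 1)) were below 0 for 67 of 77 genes (87%), against 50.2% of the 11574 genes tested, and above 0 for 10 (13%, against 49.8%). The median was -0.15 over 48 large subunit genes (44 below 0) and -0.13 over 29 small subunit genes (23 below 0), beside a median of -0.001 over all genes tested. Over all genes with a mean of at least 5 FPKM the median was -0.045. At an adjusted p under 0.05 (limma, Benjamini-Hochberg over all genes tested), 1 of 77 genes was lower (1.3%), against 1.94% of all genes, and none was higher (0.769% of all genes). In either direction 2.7% of all genes passed. At an unadjusted p under 0.05, 15 genes were lower (19.5%; 10.1% of all genes) and 0 higher (8.24%).

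The gene past the threshold was Mrpl1 (ENSMUSG00000029486, chromosome 5, 96209493 to 96266727), whose protein is the counterpart of the bacterial protein that forms the mobile stalk where spent tRNA leaves. Its levels were 5.31, 7.53, 5.82, 6.33 and 6.01 FPKM in the Ctrl mice and 4.03, 3.83, 4.43, 4.05 and 4.81 FPKM in the B2D mice. Every B2D mouse lay below every Ctrl mouse. The log2 fold change was -0.46 (SE 0.098, limma adjusted p = 0.0341), from 6.20 ± 0.828 to 4.23 ± 0.389 FPKM (SD, n = 5 each). The call was lost without Ctrl mouse 2, 4 or 5 or without B2D mouse 1, 2 or 4 (adjusted p = 0.0536 to 0.0939), without the pair of libraries with few genes (adjusted p = 0.072) and with no filter on low values (adjusted p = 0.0765), while the log2 fold change stayed between -0.54 and -0.39 in every alternative.

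In 4 genes all B2D mice lay below all Ctrl mice (5.19% of the 77; 2.89% of all genes tested), and in none above (2.08%). Beside Mrpl1 these were Mrps11, Mrps27 and Mrpl36, of which Mrps27 and Mrpl36 are named here after their values were seen. Mrps11, a conserved protein of the small subunit platform, had 4.92, 5.30, 5.02, 5.87 and 5.06 FPKM in Ctrl and 4.58, 4.37, 2.44, 4.29 and 3.25 FPKM in B2D (log2 fold change -0.40, SE 0.13, limma adjusted p = 0.137). Mrps27, an RNA-binding pentatricopeptide repeat protein of the small subunit, had 7.24 to 9.67 FPKM in Ctrl and 5.79 to 7.11 in B2D (log2 fold change -0.34, limma adjusted p = 0.0865). Mrpl36, one of the smallest large subunit proteins, had 18.2 to 25.96 and 15.6 to 17.7 FPKM (log2 fold change -0.32, limma adjusted p = 0.138). In all 3 the highest B2D mouse lay close to the lowest Ctrl mouse, and none of the 3 passed the threshold over all genes.

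The lowest log2 fold change of the family was that of Mrpl38, a large subunit protein with no bacterial counterpart. Its FPKM were 21.5, 24.0, 22.5, 19.1 and 13.6 in Ctrl and 19.9, 13.0, 12.3, 11.8 and 11.8 in B2D. Ctrl mouse 5 lay with the B2D group, and B2D mouse 1 with the Ctrl group. The log2 fold change was -0.52 (SE 0.17, limma adjusted p = 0.141). Without B2D mouse 1 its log2 fold change was -0.65 and it passed the threshold (adjusted p = 0.0467). The other genes among the 5 lowest were Mrpl28 (-0.40, adjusted p = 0.258) and Mrps24 (-0.40, adjusted p = 0.528), both with overlapping groups. Mrps24, the counterpart of a bacterial protein at the mRNA entry site, varied most, from 12.9 to 31.9 FPKM in Ctrl and from 8.12 to 28.0 in B2D, with the lowest value of each group in the pair of libraries with few genes. Fits that left out 1 library gave it log2 fold changes from -0.62 to -0.12.

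At the other end, Mrps18b (0.22, adjusted p = 0.362), Mrps2 (0.07), Mrps26 (0.07), Mrps9 (0.06) and Mrpl47 (0.05) had the highest log2 fold changes, and 4 of these 5 belong to the small subunit. None passed the threshold (adjusted p of the other 4 from 0.756 to 0.856). Of the remaining genes chosen for their roles, Mrps12, the conserved protein of the decoding centre, had a log2 fold change of -0.33 (adjusted p = 0.285), Mrpl12 of -0.18 (0.572), Mrpl58, a release factor homologue that frees stalled peptides from within the large subunit, of -0.12 (0.601), Mrps36 of -0.12 (0.679), Mrps18c of -0.13 (0.673), Mrps18a of -0.06 (0.83) and Mrps30 of -0.18 (0.4). The 3 homologues of bacterial S18, Mrps18a, Mrps18b and Mrps18c, of which Mrps18c is the one counted here as a bacterial counterpart by its place in the structure, had values on either side of 0, and none was past the threshold. Among large subunit proteins by structure, those with a bacterial counterpart (30 tested, median -0.15) and those without (20 tested, median -0.15) had like medians. For the small subunit the medians were -0.21 (16) and -0.13 (10).

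**Figure D2:**
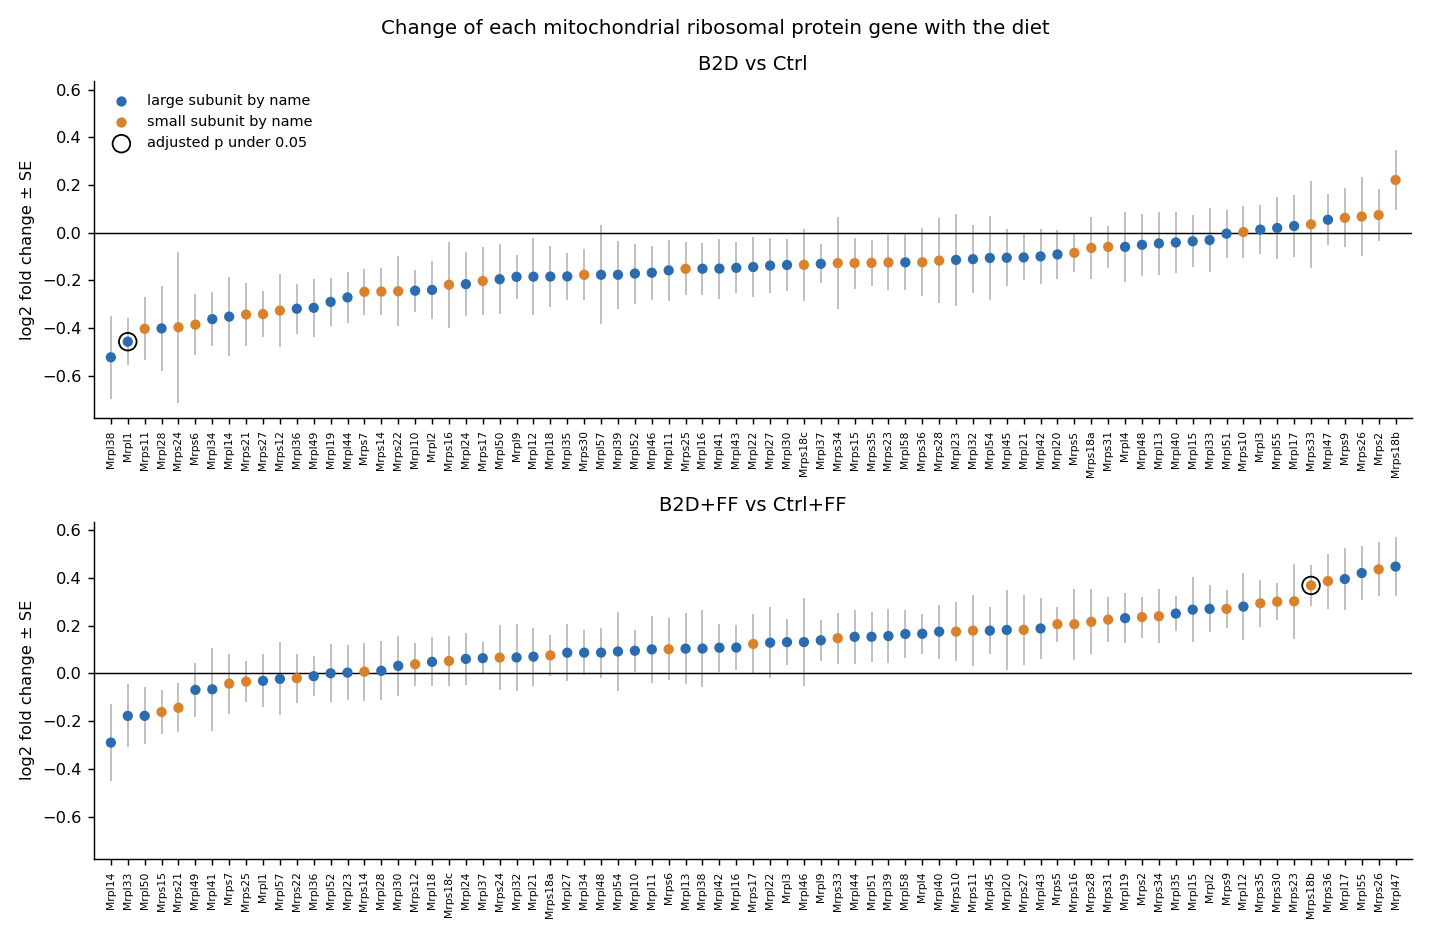
Log2 fold change ± SE of each of 77 genes, ranked, for B2D vs Ctrl (upper panel, 5 mice per group) and B2D+FF vs Ctrl+FF (lower panel, 4 mice per group), coloured by subunit name, with a ring at an adjusted p under 0.05. Values below 0 fill most of the upper panel (67 of 77) and values above 0 most of the lower (64 of 77), and the ringed genes are Mrpl1 and Mrps18b.

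With fenofibrate most MRP genes of both subunits had a slightly higher mean level on the deficient diet than on the control diet, and 1 gene, Mrps18b, passed the threshold as higher. The log2 fold change of B2D+FF over Ctrl+FF was above 0 for 64 of 77 genes (83.1%), against 52.8% of the 11878 genes tested, and below 0 for 13 (16.9%, against 47.2%). The median was 0.10 over the large subunit genes (40 of 48 above 0) and 0.18 over the small subunit genes (24 of 29 above 0), beside 0.01 over all genes tested. Over all genes with a mean of at least 5 FPKM the median was 0.052. At an adjusted p under 0.05 in limma, 1 gene was higher (1.3%, against 2.24% of all genes tested) and 0 were lower (2.21%), where 4.45% of all genes passed in either direction. At an unadjusted p under 0.05, 14 genes were higher (18.2%; 11.3% of all genes) and 0 lower (9.93%). By name, these 14 comprised 9 of 29 small subunit genes (31%) and 5 of 48 large subunit genes (10.4%). The 9 include Mrps30 and Mrps36, which by structure belong to the large subunit and to neither subunit. Both medians rested in part on single libraries. That of the small subunit was 0.11 without B2D+FF mouse 1. That of the large subunit was 0.04 without B2D+FF mouse 1, 0.07 without Ctrl+FF mouse 4, 0.16 without Ctrl+FF mouse 3 and 0.16 without B2D+FF mouse 3. With upper quartile rescaling it was 0.05, where the median of all genes was -0.03.

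The gene past the threshold was Mrps18b (ENSMUSG00000024436, chromosome 17, 35910379 to 35916389), one of the S18 homologues of the small subunit. Its levels were 8.46, 9.98, 10.025 and 9.41 FPKM in the Ctrl+FF mice and 13.0, 11.8, 11.5 and 13.7 FPKM in the B2D+FF mice. All B2D+FF mice lay above all Ctrl+FF mice. The log2 fold change was 0.37 (SE 0.088, limma adjusted p = 0.0482), from 9.47 ± 0.728 to 12.5 ± 1.04 FPKM (SD, n = 4 each). The call was lost in 7 of 8 fits that left out 1 library (adjusted p up to 0.137, B2D+FF mouse 3 being the exception). It was also lost with no filter, with either rescaling, with all groups in 1 fit and without Ctrl+FF mouse 3 and B2D+FF mouse 1 together (adjusted p = 0.06 to 0.137). Of its exon bases, 30.5% are shared with the antisense gene Gm16279.

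Groups did not overlap, with B2D+FF above, for 12 of the 77 genes (15.6%; 7.82% of all genes tested), and for none with B2D+FF below (6.44%). Of these, 8 were small subunit genes by name and 4 large. The 8 include Mrps30 and Mrps36, which are not in the small subunit by structure. Mrpl47, a conserved protein near the exit of the peptide tunnel, had 2.65, 3.23, 3.16 and 2.78 FPKM in Ctrl+FF and 5.47, 4.87, 3.37 and 4.06 FPKM in B2D+FF, and the highest log2 fold change (0.45, SE 0.12, limma adjusted p = 0.0761). Mrps26, a small subunit protein of the mitochondrial lineage, had 5.71, 5.88, 6.38 and 5.71 FPKM in Ctrl+FF and 10.3, 9.04, 6.92 and 7.55 FPKM in B2D+FF (log2 fold change 0.44, SE 0.11, limma adjusted p = 0.0631). Both genes were well separated in B2D+FF mice 1 and 2 and close to the control range in mouse 3. Mrpl55 had 15.8, 15.2, 16.9 and 17.8 FPKM in Ctrl+FF and 27.6, 22.4, 19.5 and 20.3 FPKM in B2D+FF (log2 fold change 0.42, SE 0.11, limma adjusted p = 0.0722). Mrpl17 (0.40, adjusted p = 0.118), whose groups overlapped, and Mrps36 (0.39, adjusted p = 0.0914), whose groups did not, complete the 5 highest. Mrps30, in the large subunit by structure, had 1.64 to 2.00 FPKM in Ctrl+FF and 2.25 to 2.73 in B2D+FF (log2 fold change 0.30, limma adjusted p = 0.0625).

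The 5 lowest were Mrpl14 (-0.29, adjusted p = 0.344), Mrpl33 (-0.18, 0.475), Mrpl50 (-0.18, 0.432), Mrps15 (-0.16, 0.359) and Mrps21 (-0.14, 0.46), none past the threshold. Mrpl14, the highest gene of the family, had 93.0, 101, 137 and 78.5 FPKM in Ctrl+FF and 90.9, 78.3, 73.0 and 86.3 FPKM in B2D+FF, so its groups overlapped and Ctrl+FF mouse 3 stood highest. The other genes chosen for their roles were Mrpl12 (0.28, adjusted p = 0.289), Mrpl58 (0.17, 0.385), Mrps18a (0.08, 0.663), Mrps18c (0.05, 0.822) and Mrps12 (0.04, 0.848). By structure, small subunit proteins without a bacterial counterpart had a median of 0.23 (10 genes) and those with one 0.11 (16 genes), against 0.11 (20) and 0.10 (30) in the large subunit.

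**Figure D3:**
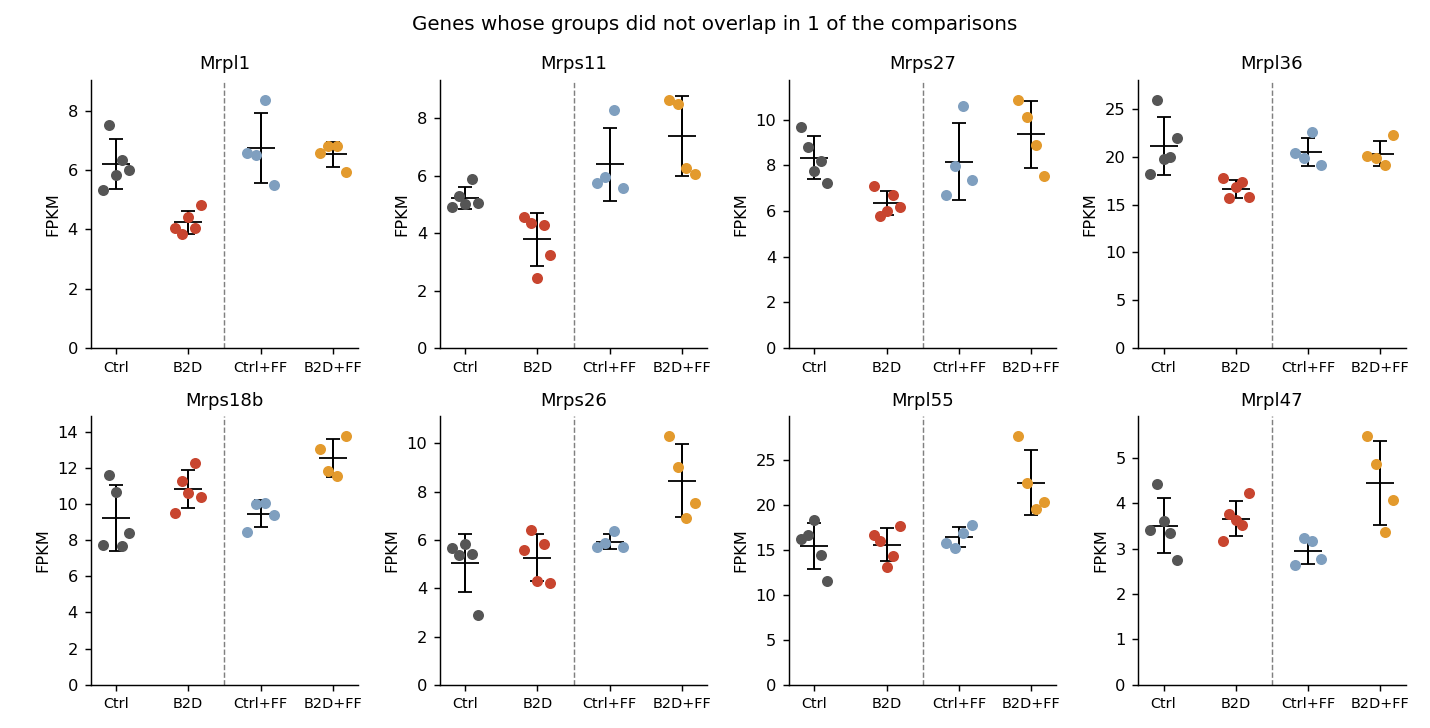
FPKM of 8 genes whose groups did not overlap in a diet comparison; each point is 1 mouse, bars are mean ± SD, and the dashed line separates tables that were normalized separately. In the upper row (Mrpl1, Mrps11, Mrps27, Mrpl36) all B2D mice lie below all Ctrl mice, and in the lower row (Mrps18b, Mrps26, Mrpl55, Mrpl47) all B2D+FF mice lie above all Ctrl+FF mice.

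Set side by side, 54 of 77 genes were below 0 without fenofibrate and above 0 with it (70.1%; 21.5% of all genes tested in both), 13 were below 0 in both, 10 were above 0 in both and 0 were above 0 only without fenofibrate. The comparisons share no mice. Across the 77 genes, the log2 fold changes had a Pearson correlation of 0.467. Genes are not independent replicates and are measured in the same libraries. In a fit of all 18 libraries, the difference between the diet effects (with minus without fenofibrate) was above 0 for 75 of 77 genes (97.4%; 52.4% of the 11862 genes tested), with medians of 0.27 over large and 0.29 over small subunit genes and 0.01 over all genes. Among genes with a mean of at least 5 FPKM, the difference had a median of 0.092 over all genes and 0.28 over 62 MRP genes. The part of expression level in these values was not tested. With upper quartile rescaling the difference was above 0 for 72 genes, and its median over the 77 genes went from 0.27 to 0.18. No single gene passed the threshold in limma (0.228% of all genes tested did so), also with voom on the recovered reads; at an unadjusted p under 0.05, 21 genes had a positive difference (27.3%; 6.69% of all genes) and 0 a negative one (5.21%). The difference in diet effect was largest for Mrpl38 (0.63, limma adjusted p = 0.335), Mrps11 (0.58, 0.27), Mrps27 (0.52, 0.213), Mrpl19 (0.52, 0.134) and Mrps36 (0.51, 0.3), and lowest for Mrpl33 (-0.15, 0.798), Mrps15 (-0.03, 0.947), Mrpl50 (0.02, 0.984), Mrpl14 (0.06, 0.946) and Mrpl41 (0.08, 0.913).

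**Figure D4:**
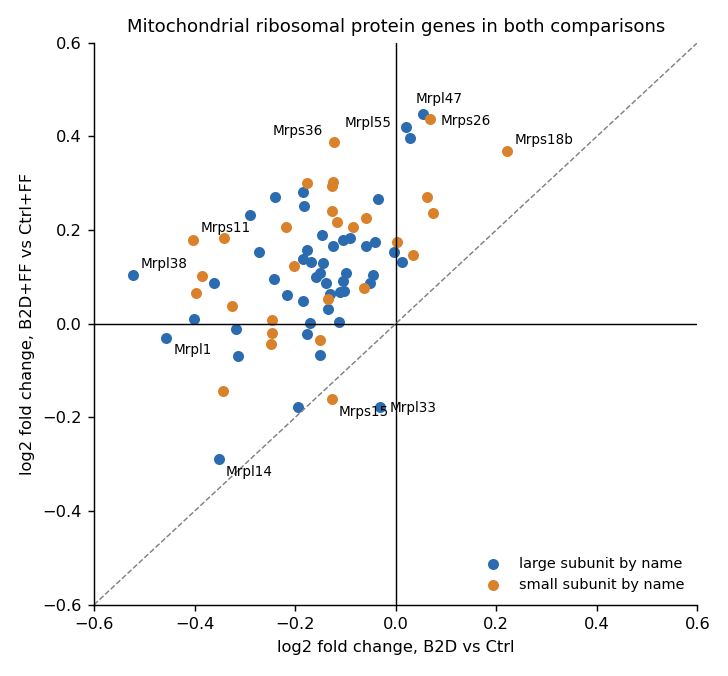
Log2 fold change of each of 77 genes in B2D vs Ctrl (horizontal) and B2D+FF vs Ctrl+FF (vertical), coloured by subunit name, with the dashed line where both are equal. The upper left quadrant holds 54 genes, the upper right 10, the lower left 13 and the lower right 0, and 75 genes lie above the dashed line.

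Genes with ETS letters in a window (25 tested) had a median log2 fold change of -0.13 without and 0.09 with fenofibrate, and those without (43 tested) of -0.17 and 0.11. The printed window of Mrpl1 and that of Mrps18b hold SP1 letters and no ETS or YY1 letters. Mrps26 holds ETS letters that begin 14 bases before its start, and Mrps11, which shares 7.96% of its exon bases with the divergent gene Mrpl46, holds YY1 letters 106 bases before its start. Mrpl46 itself had log2 fold changes of -0.17 and 0.13.

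Another 5 mitoribosome proteins carry other symbols. Their genes are Dap3, the GTP-binding protein of the small subunit, Aurkaip1, Chchd1 and Ptcd3, also of the small subunit, and Gadd45gip1 of the large subunit. All 5 were below 0 in B2D (median -0.17, from -0.30 for Chchd1 to -0.03 for Ptcd3), none past the threshold, and 3 of 5 were above 0 in B2D+FF (median 0.03, 0 past the threshold). Genes of mitoribosome assembly and rRNA modification were below 0 for 24 of 28 (median -0.11) without and above 0 for 20 of 28 (median 0.04) with fenofibrate, none past the threshold. Mitochondrial aminoacyl-tRNA synthetases, which charge the tRNAs, were below 0 for 13 of 17 (median -0.14) and above 0 for 11 of 17 (median 0.07), none past the threshold. Of all genes tested, 50.2% were below 0 without and 52.8% above 0 with fenofibrate. Of the mitochondrial translation factors, Mrrf, the ribosome recycling factor, was lower in B2D, from 4.50 ± 0.297 to 3.26 ± 0.234 FPKM (log2 fold change -0.37, SE 0.079, limma adjusted p = 0.0341). It was the only one of 15 tested past the threshold (median -0.11), and with fenofibrate it had a log2 fold change of -0.08 (adjusted p = 0.784), when 0 of 16 passed (median near 0, -0.005). At this threshold 1.94% of all genes tested were lower in B2D.

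Other mitochondrial genes had other values. The mitochondrially encoded mRNAs, which the mitoribosome translates, were above 0 for 13 of 13 in B2D (median 0.37) and for 5 of 13 in B2D+FF (median -0.06), none past the threshold in either. The MRP sum as a percentage of the sum of these mRNAs was 2.49 ± 0.39 in Ctrl and 1.73 ± 0.357 in B2D (n = 5 each), with overlapping ranges of 1.80 to 2.75 and 1.37 to 2.20, and 2.11 ± 0.247 and 2.49 ± 0.449 with fenofibrate (n = 4 each). The mitochondrial rRNAs, which libraries made from mRNA catch poorly, had log2 fold changes of -0.46 (mt-Rnr1) and -0.35 (mt-Rnr2) in B2D and 0.23 and -0.40 in B2D+FF, none past the threshold. Genes of general mitochondrial content were above 0 for 13 of 20 in B2D (median 0.08) and for 19 of 20 in B2D+FF (median 0.28), where 3 rose: Cycs, the electron carrier cytochrome c (0.66, adjusted p = 0.0182), Phb, prohibitin of the inner membrane (0.51, 0.0333), and Vdac2, an outer membrane channel (0.39, 0.0397). Of all genes tested, 49.8% were above 0 in B2D and 52.8% in B2D+FF, and 2.24% were past the threshold as higher in B2D+FF. Cytosolic ribosomal protein genes had medians of 0.03 (53 of 79 above 0) and 0.07 (61 of 79 above 0), with 0 past the threshold in either.

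Of 17 and 19 genes tested for mitochondrial biogenesis and mitochondrial DNA transcription, 0 passed the threshold without fenofibrate (median 0.04) and 2 with it (median 0.02). Of all genes tested, 2.7% and 4.45% passed in either direction. Esrra, a nuclear receptor of mitochondrial gene programmes, rose from 20.2 ± 2.14 to 29.6 ± 1.92 FPKM (log2 fold change 0.53, SE 0.095, limma adjusted p = 0.0181), and had -0.19 (adjusted p = 0.543) without fenofibrate. Mterf2, of the mitochondrial transcription termination factor family, fell from 1.73 ± 0.319 to 0.958 ± 0.204 FPKM (-0.48, adjusted p = 0.0448). Ppargc1a, the coactivator PGC-1α, had log2 fold changes of 0.61 (adjusted p = 0.195) and 0.68 (0.111), Nrf1 of 0.04 and -0.04, Gabpa of 0.10 and 0.08, Tfam, which packages mitochondrial DNA, of -0.06 and 0.10, and Polrmt, the mitochondrial RNA polymerase, of 0.02 and 0.12, none past the threshold.

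**Figure D5:**
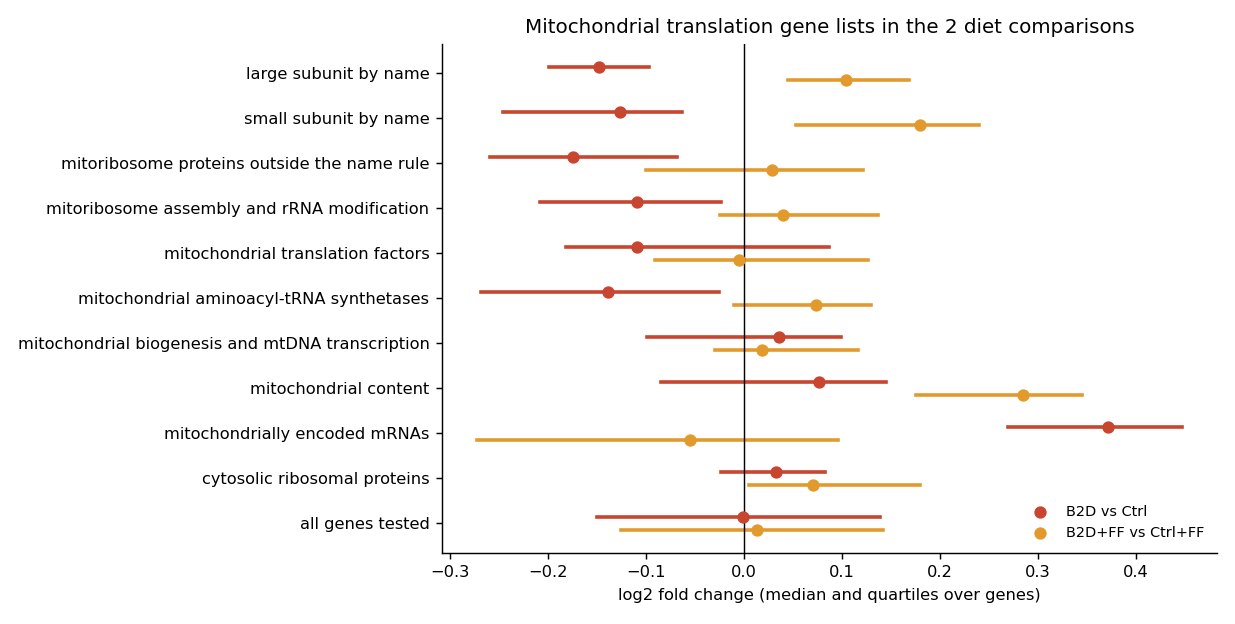
Median (point) and quartiles (bar) of the log2 fold change over the tested genes of each list, for B2D vs Ctrl and B2D+FF vs Ctrl+FF. The quartile bars of both MRP subunits lie below 0 in the first comparison and above 0 in the second, while the mitochondrially encoded mRNAs lie above 0 in the first (median 0.37) and around 0 in the second (median -0.06).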

How the data were processed

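Livers of 18 mice were profiled as mRNA libraries (NEBNext Ultra) read from both ends. The authors aligned the reads with STAR to mm10, counted them per gene with featureCounts and normalized with DESeq2 (versions are not given in the sources used here), and deposited FPKM per gene in 1 table per pair of diets, each normalized on its own. FPKM times gene length gave whole numbers of reads for 100% of values in every library (tolerance 0.02 read), which gives the depths and the reads used in an alternative. The deposited FPKM were tested as log2(FPKM + 1), for genes with a mean of at least 0.5 FPKM, with limma 3.58.1 in R 4.3.3 (trended moderation, Benjamini-Hochberg threshold 0.05), each table alone. For the difference of diet effects, the 18 libraries were fitted together. On this scale the change of a gene at a low level is understated. The deposited unit is FPKM, so a count test was not the main test. Voom on the recovered reads was the only count-based alternative run. The script was also run on simulated data with known changes larger than the medians above. The outcome is not given here, and that run did not cover changes of the size of those medians.

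Genes named are, per comparison, those past the threshold and the 5 highest and 5 lowest log2 fold changes, the 3 highest and 3 lowest levels, 8 genes with a known role or a misleading name (Mrps18a, Mrps18b, Mrps18c, Mrps30, Mrps36, Mrpl12, Mrpl58 and Mrps12), mitoribosome proteins of other symbols, mitochondrial rRNAs, and set biogenesis genes. The members and lists were chosen with earlier results of these data known. Alternatives changed the pseudocount (0.1), the filter (none, or 5 FPKM), the scaling (upper quartile, quantile), library weights, the test (voom), the fit (all groups), the subunit assignment and the libraries included. Letters for NRF1, for PPAR and for a palindromic element were also searched in promoters and are left out, since for NRF1 and PPAR their form was changed after matches had been seen and the share of windows depended on it. Mice are numbered in accession order within a group, and whether the mice of a group shared cages is not stated.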

Additional observations from a re-analysis of the deposited data

Results flagged for a closer look

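In 136 groups of 4 or 5 mice examined (named genes and summed levels, per group), 6 values stood far from the rest of their group by Dixon's 95% limit, and chance alone picks about 1 in 20 groups. Mrpl38 was at 19.85 FPKM in B2D mouse 1 (the others 11.8 to 13.0) and at 32.9 FPKM in B2D+FF mouse 1 (the others 22.3 to 23.7). Mrps11 was at 8.29 FPKM in Ctrl+FF mouse 3 (the others 5.57 to 5.96). Mrps18a was at 8.96 FPKM in Ctrl mouse 2 (the others 5.11 to 6.13). Mrps26 was at 2.91 FPKM in Ctrl mouse 5 (the others 5.39 to 5.85), a library with few genes detected. The mean log2(FPKM + 1) of the MRP genes minus that of the cytosolic ribosomal protein genes was -3.115 in B2D+FF mouse 1 (the others -2.84 to -2.79), the mouse with the highest cytosolic ribosomal protein sum.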

How the results depend on the processing

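The medians of both subunits kept their sign in both comparisons under every alternative run: -0.20 to -0.09 (large) and -0.17 to -0.09 (small) for B2D over Ctrl, and 0.04 to 0.16 and 0.11 to 0.22 for B2D+FF over Ctrl+FF. Genes below 0 in B2D numbered 55 to 72 and genes above 0 in B2D+FF 54 to 70. The count of 55 came from the filter of at least 5 FPKM, which left fewer MRP genes to test. It is therefore no sign of a weaker direction. With single libraries left out, genes below 0 in B2D numbered 60 to 72. The numbers past the threshold were less stable. For B2D they were 1 as reported, 0 with no filter, 3 with all 4 groups in 1 fit (Mrpl1, Mrpl34 and Mrpl36), 0 without the pair of libraries with few genes, and 0 to 1 when single libraries were left out. For B2D+FF they were 1 as reported, 0 with no filter, upper quartile rescaling or quantile normalization, and 3 with genes of at least 5 FPKM, array weights or voom. With all 4 groups in 1 fit 1 passed, which was Mrpl47 (limma adjusted p = 0.0486) and not Mrps18b (0.0984). Without the pair of libraries with the highest cytosolic ribosomal protein sums 0 passed, and 0 to 3 when single libraries were left out. For the difference of diet effects the numbers past the threshold were 0 in all. Both pairs of libraries were chosen after seeing the data. The cause was not tested.

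Values that changed sign all lay near 0. Without the pair of libraries with few genes, the B2D log2 fold changes were -0.0085 (Mrpl47) and -0.024 (Mrps26). With single libraries left out they ranged from -0.0093 to 0.12 (Mrpl47), -0.082 to 0.13 (Mrps26) and -0.13 to 0.048 (Mrps18a). In B2D+FF, Mrps12 was at -0.021 with upper quartile rescaling, at -0.00054 without the pair highest in cytosolic ribosomal protein sums and at -0.013 to 0.088 with single libraries left out. Mrps18c was at -0.0048 with upper quartile rescaling and at -0.0093 to 0.12 with single libraries left out. For the difference of diet effects, upper quartile rescaling and quantile normalization gave -0.032 and -0.085 (Mrpl14), -0.0089 and -0.018 (Mrpl41) and -0.075 and -0.081 (Mrpl50), and array weights gave 0.0010 (Mrps15). With single libraries left out these ranged from -0.054 to 0.21 (Mrpl14), -0.023 to 0.20 (Mrpl41), -0.078 to 0.095 (Mrpl50) and -0.10 to 0.020 (Mrps15). The cause was not tested. Of all single-gene values recomputed, 790 kept direction and side of the threshold, 20 lost the threshold, 10 gained it and 33 changed sign.

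Over all genes, 313 passed in B2D as reported against 67 with no filter, 731 with all groups in 1 fit, 153, 109 and 98 without Ctrl mouse 1, 2 or 4, and 161 and 148 without B2D mouse 2 or 4. In B2D+FF 529 passed as reported, 263 lower and 266 higher, against 366 lower and 223 higher with upper quartile rescaling, 272 in all with no filter, 885 with array weights, 175, 188 and 242 without Ctrl+FF mouse 1, 2 or 3, 302 and 298 without B2D+FF mouse 1 or 4, and 97 without the pair highest in cytosolic ribosomal protein sums. No paired analysis was possible because every mouse has its own number and the groups share none. With 4 or 5 mice per group and a median SE of 0.12 (B2D) and 0.11 (B2D+FF) on the log2 scale, changes of the size of these medians in a single gene were not detectable.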
